A study of Mus musculus with 18 samples.

Results

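Interleukin-6 (IL-6) was added to GM-CSF in cultures of bone marrow from mice labelled as lacking Cysltr1, a receptor for the cysteinyl leukotrienes, and the change in messenger RNA across all expressed genes is described here. The libraries were chosen by their titles: 3 cultures with GM-CSF and IL-6 and 3 with GM-CSF alone, 6 of the 18 libraries of the series. The series grew marrow of wild-type (WT) BALB/c mice and of Cysltr1-deficient mice for 4 days in GM-CSF, in GM-CSF with IL-6, or in GM-CSF with medium conditioned by EMT6 mammary carcinoma cells, with 3 libraries in each of 6 groups. It asks how cytokines and tumour medium shape myeloid cells that form in vitro, and whether the receptor's genotype alters this. GM-CSF was present at 40 ng/mL in both groups compared here, and IL-6 at 40 ng/mL in one of them, so the controls carry both the genotype and the growth factor. Marrow of 3 mice was pooled for each sample. Whether the 3 samples of a group came from separate pools is not stated, so p-values measure the spread between these samples, which may be technical. The labels give neither the strain nor the allele of the deficient mice, and they name the cells only as marrow-derived. Poly(A) RNA was sequenced in bulk, and in such data fewer cells of a type and less RNA per cell cannot be told apart.

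IL-6 binds its receptor chain IL-6Rα, which pairs with the shared signalling chain gp130 (Il6st). JAK kinases on gp130 then activate the transcription factor STAT3, and STAT3 in turn raises Socs3, an inhibitor that binds gp130 and limits the signal. In marrow, GM-CSF drives progenitors toward granulocytes, macrophages and dendritic cells, and IL-6 is known to shift such cultures toward immature and suppressive myeloid cells. Cysteinyl leukotrienes are lipid mediators made from arachidonic acid by 5-lipoxygenase (Alox5) in myeloid cells, mast cells and eosinophils.

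Cysltr1 itself was measured first, since its transcript checks the label (chrX:106574346-106603679 on mm10, minus strand, protein-coding). It had 1697, 1904 and 1271 counts in the GM-CSF libraries and 1969, 1867 and 1994 in the IL-6 libraries, or 75.2, 77.4 and 78.7 against 90.8, 90.8 and 87.7 CPM (counts scaled to library size). The WT cultures averaged 60.5 and 80.8 CPM, so these libraries did not show less of the transcript than WT ones. Counts of a whole gene do not show whether a part of it is deleted, and the genotype rests on the labels. Within the labelled-deficient cultures Cysltr1 rose with IL-6 by 0.22 ± 0.06 on the log2 scale (SE, n = 3 per group, edgeR adjusted p = 0.0032), with no overlap between the groups. Gene counts ran from 17.8 to 26.7 M with GM-CSF and from 21.9 to 24.4 M with IL-6. Reads in no annotated gene took 17.0% to 18.1% and 18.1% to 20.5%. The first principal component of these 6 libraries held 79.5% of the variance and separated the groups, and no library stood apart from its group.

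IL-6 changed 4057 of the 28334 tested genes at an adjusted p under 0.05 in edgeR's quasi-likelihood test, which is 14.3% of them. Genes past that threshold are said to have risen or fallen, or to be called. A total of 1571 rose (5.54%) and 2486 fell (8.77%). Most changes were small, with a median absolute log2 fold change of 0.33 among the called genes. At least 2-fold rises numbered 207 (0.731%) and at least 2-fold falls 125 (0.441%). The replicates of the groups did not overlap for 8625 genes (30.4%), 3927 higher (13.9%) and 4698 lower (16.6%). Thus more genes fell than rose, while among the large changes rises were in the majority. The share of calls that were rises, 38.7%, depended on how libraries were scaled. It was 27.98% with DESeq2 size factors, 26.1% with DESeq2, 45.6% with library size alone and 50.5% among genes with a mean of at least 5 CPM scaled on their own. These settings moved the median log2 fold change by -0.04 to 0.045. The low-count filter ran over all 18 libraries. When only the 6 libraries compared were filtered and fitted, 20584 genes were tested and 5704 were called. Among 11103 genes with at least 5 CPM in one of the groups, 1280 rose (11.5%) and 2323 fell (20.9%), together 32.5%. The shares called among list members below are to be read against these, since most members are well expressed. The median log2 fold change was 0.02 over all tested genes and -0.05 over the 11103.

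**Figure D1:**
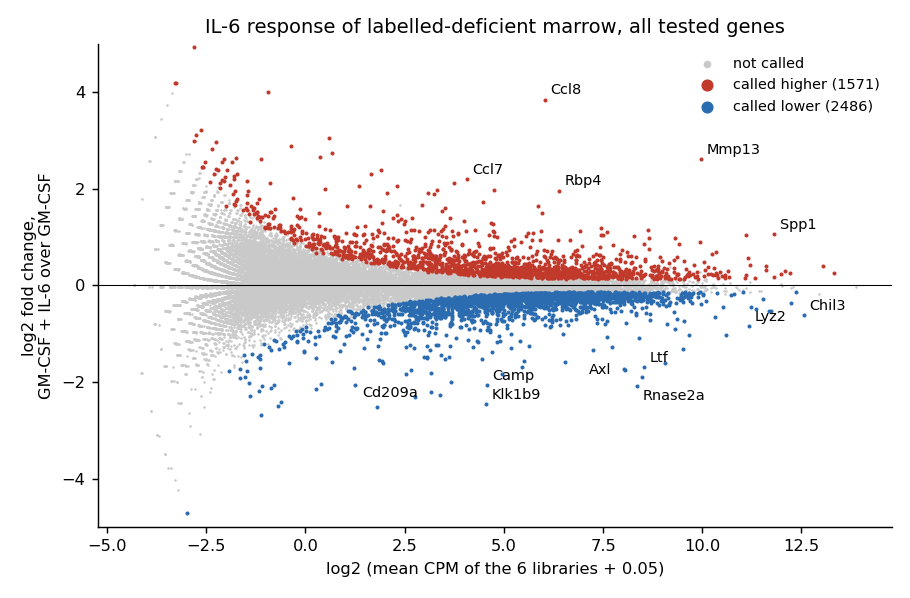
Log2 fold change with IL-6 in labelled-deficient marrow (y axis) against mean CPM on a log axis (x axis), 1 point per tested gene. Red points are the 1571 genes that rose and blue points the 2486 that fell at an adjusted p under 0.05 (edgeR), and most of them lie within 1 log2 unit of 0.

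The receptor and feedback genes of the cytokine itself moved modestly. Socs3 had 318, 306 and 308 CPM with GM-CSF and 451, 438 and 442 CPM with IL-6, a rise of 0.51 ± 0.05 (log2 ± SE, edgeR adjusted p = 4.0e-12, chr11:117966079-117970047). The 2 groups did not overlap. Transcripts of Stat3 rose by 0.25 ± 0.06 (adjusted p = 6.1e-04), from 271, 278 and 275 to 343, 320.3 and 319 CPM. Il6st, which encodes gp130, rose by 0.35 ± 0.05 (adjusted p = 2.6e-06), from 286, 268 and 278 to 373, 343 and 348 CPM. Il6ra, the binding chain, had 79.8, 81.2 and 85.9 CPM with GM-CSF and 95.2, 86.4 and 85.2 with IL-6, groups that overlap (adjusted p = 0.22). Il10rb, a chain of the IL-10 receptor, rose by 0.52. Over the 40 tested genes of the pathway, 12 rose and 10 fell, with a median log2 fold change of 0.03. By role, 3 of 7 receptor chains rose and 1 fell, 1 of 7 kinases and factors rose and 1 fell, 1 of 8 inhibitors rose and 3 fell, and 7 of 18 targets rose and 5 fell. Socs2, an inhibitor best known downstream of STAT5, fell from 249, 244 and 248 to 166, 164 and 173 CPM (-0.56 ± 0.05, edgeR adjusted p = 1.8e-12). Of the target genes, the acute phase gene Saa3 had the largest change, 1.97 ± 0.11 (adjusted p = 4.6e-19). Its level went from 4.12, 4.07 and 3.84 to 16.0, 15.6 and 15.7 CPM.

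The window before the Socs3 start is shown because it holds a copy of the palindrome that STAT proteins bind, TTCNNNGAA, at positions 154 to 146 before the RefSeq start. The sequence is RefSeq's, GRCm38.p6, chr11:117969467-117969565, minus strand, with the match in capitals.
Socs3: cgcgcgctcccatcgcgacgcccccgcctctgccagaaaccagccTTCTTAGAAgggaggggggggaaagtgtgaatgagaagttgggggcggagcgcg
The pattern TTCNNNGAA, with any letters at N, reads the same on both strands. It occurs in 7.02% of the 32841 RefSeq windows of 250 bases before a start, and in 6.59% of those of genes that rose against 6.38% of those of all tested genes. A match is a description of letters and does not show binding.

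Chemokines and a collagenase led the rises. Ccl8, a CC chemokine, had 8.42, 8.58 and 8.67 CPM with GM-CSF and 117, 125 and 126 CPM with IL-6 (chr11:82115185-82116799). This rise of 3.84 ± 0.07 on the log2 scale was the largest of any gene with at least 5 CPM (edgeR adjusted p = 1.4e-35). Ccl7 and Ccl2, monocyte chemoattractants of the same chromosome 11 cluster, rose by 2.20 ± 0.10 and 1.09 ± 0.07. Ccl7 went from 5.99, 6.30 and 5.63 to 24.0, 28.2 and 30.7 CPM and Ccl2 from 35.1, 31.7 and 35.3 to 74.1, 70.9 and 71.6 CPM, and neither showed overlap between groups. The rise did not extend to all inflammatory CC chemokines, of which 4 of 9 rose and 2 fell (median 0.07). Only 1 fell without GM-CSF replicate 1 or 3 or IL-6 replicate 2 or 3. Ccl5, which attracts T cells and monocytes, fell from 41.9, 39.8 and 41.7 to 17.6, 18.1 and 19.8 CPM (-1.15 ± 0.07, edgeR adjusted p = 3.7e-17). Among CXC chemokines and their receptors 7 of 18 rose and 1 fell (median 0.25), and 4 rose without GM-CSF replicate 1 or with DESeq2 size factors. Pf4, platelet factor 4, rose by 1.01 ± 0.06 and Cxcl14 fell by 1.49 ± 0.10 in log2 terms (edgeR adjusted p = 4.8e-18 and 1.8e-15).

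Mmp13, an interstitial collagenase, had 292, 264 and 286 CPM with GM-CSF and 1708, 1739 and 1694 CPM with IL-6 (chr9:7272514-7283331). Every IL-6 library was more than 5 times every GM-CSF library, a rise of 2.61 ± 0.05 (edgeR adjusted p = 1.4e-35). It was also among the largest gains in absolute CPM. Matrix metalloproteinases and their TIMP inhibitors rose in 11 of 17 tested members and fell in 3, with a median of 0.28. Of the 13 proteases 8 rose and 3 fell, and of the 4 inhibitors 3 rose. Mmp12, the macrophage elastase, was one of the most abundant transcripts and rose from 7359, 6895 and 7405 to 9775, 9476 and 9334 CPM (0.40 ± 0.06, adjusted p = 5.0e-07). Mmp8, a neutrophil collagenase, rose by 0.65 ± 0.05, from 942, 919 and 962 to 1548, 1458 and 1434 CPM. Mmp27 rose by 1.91 ± 0.17 at a low level, 1.60, 1.504 and 2.23 against 5.86, 5.98 and 7.65 CPM. Timp2, an inhibitor, rose by 0.72 ± 0.05 (edgeR adjusted p = 9.8e-15).

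The stretch just before the start of Mmp13 is printed because a TGANTCA element, the letters bound by AP-1 factors, lies 35 to 29 bases before the start. It is RefSeq's on GRCm38.p6, chr9:7272434-7272513, plus strand, with the element in capitals.
Mmp13: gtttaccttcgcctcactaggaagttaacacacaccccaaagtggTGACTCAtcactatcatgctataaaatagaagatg
Either strand was searched. The element was found in 6.75% of all windows of 250 bases, in 5.76% of those of tested genes, in 7.23% of those of genes that rose and in 4.65% of those of genes that fell. These shares describe letters only.

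**Figure D2:**
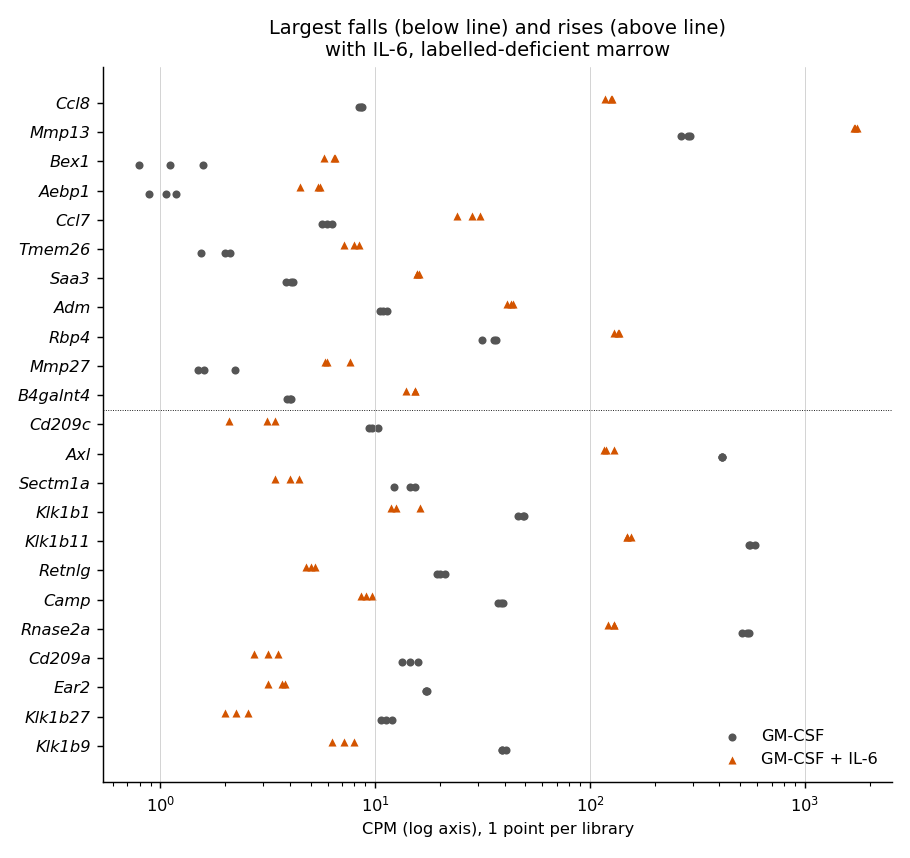
CPM of each library (x axis, log scale) for 11 of the 12 largest rises and for the 12 largest falls with IL-6 in labelled-deficient marrow, 1 line per gene. Grey circles are the 3 GM-CSF libraries and orange triangles the 3 IL-6 libraries, and they do not overlap for any of the 23 genes. Ccl8 lies at 8.42, 8.58 and 8.67 against 117, 125 and 126 CPM.

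Products known from macrophages were among the largest gains in absolute level. Spp1 (osteopontin, a secreted adhesion protein) went from 2326, 2289.9 and 2421 to 4925, 4929.6 and 4799 CPM, a rise of 1.06 ± 0.05 (edgeR adjusted p = 5.4e-22). The lysosomal proteases Ctsl and Ctsb rose by 1.04 ± 0.05 and 0.57 ± 0.04. Ctsl had 1440.0, 1386 and 1520.1 CPM with GM-CSF and 2988, 2978 and 2958 with IL-6. Fth1, the ferritin heavy chain that stores iron, rose by 0.25 ± 0.05 from a mean of 9244 to 11028 CPM. P4hb, a protein disulfide isomerase, and Vim, the intermediate filament vimentin, were the other named gains, at 0.30 and 0.41. Arg1 (arginase, which depletes arginine) had 3732, 3622 and 3825 against 4498, 4339 and 4369.9 CPM, a rise of 0.24 ± 0.07 (adjusted p = 0.0092) that no longer passed without GM-CSF replicate 2 (0.22) or with DESeq2.

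Genes of lipid-laden macrophages rose in 8 of 15 members and fell in 3 (median 0.32). Gpnmb, a lysosomal membrane glycoprotein, rose from 731, 665 and 680.1 to 1302, 1261 and 1297 CPM (0.89 ± 0.05). Lpl, the lipoprotein lipase that releases fatty acids, moved the other way, from 1020.2, 1011 and 1069 to 423, 422 and 407 CPM (-1.31 ± 0.05, edgeR adjusted p = 7.8e-25). Lysosome genes rose in 12 of 22 and fell in 1, by small amounts (median 0.14). Surface genes of macrophages split: 7 of 20 rose and 3 fell (median 0.34), and 11 rose when only the groups compared were fitted. The mannose receptor Mrc1 had 248, 241 and 248 against 561, 552 and 525 CPM (1.15 ± 0.06, edgeR adjusted p = 2.3e-19). The scavenger receptor Cd36 went from 218, 212 and 219 to 89.4, 87.9 and 80.5 CPM (-1.33 ± 0.06), and Axl, a receptor kinase for the clearance of dead cells, from 409, 412 and 409 to 129, 117 and 118 CPM (-1.76 ± 0.05, edgeR adjusted p = 4.0e-29, chr7:25757273-25788705). Both fell without overlap. Adgre1, which encodes the marker F4/80, had a small fall of -0.14 ± 0.05 (edgeR adjusted p = 0.039). The call was lost when any of 5 libraries was left out (-0.15 to -0.12), the exception being IL-6 replicate 1. It was also lost among genes of at least 5 CPM scaled on their own (-0.09). In all, 7 of 14 alternatives other than a 2-fold requirement ended the call. Of 5 defining macrophage markers 3 rose and 1 fell. Their summed level was 1888 to 1936 CPM with GM-CSF and 2294 to 2406 CPM with IL-6, and it includes the rise of Mrc1 given above.

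Several rises came from genes with other roles. Rbp4 (a carrier of retinol) went from 35.6, 31.3 and 36.5 to 135, 136 and 129 CPM (1.96 ± 0.06, edgeR adjusted p = 3.3e-27). Adm, the vasodilator peptide adrenomedullin, rose by 1.97 ± 0.07 from 10.5, 11.3 and 10.8 to 41.1, 42.7 and 44.0 CPM. Bex1, Aebp1, Tmem26 and B4galnt4 were also among the 12 largest rises, at 2.39, 2.32, 2.07 and 1.89. Bex1 and Aebp1 had mean levels of 1.17 and 1.04 CPM with GM-CSF, so their folds start from low counts.

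Adm is also a target of hypoxia-inducible factor 1 (HIF-1), and most listed HIF-1 response genes rose, though the factor's activity was not tested. Of 20 tested genes 14 rose and 0 fell, with a median of 0.29. Hilpda, a lipid droplet protein, rose from 88.2, 83.6 and 87.7 to 141, 143 and 146 CPM (0.73 ± 0.05), Ddit4, an inhibitor of mTOR, by 0.74 ± 0.05, and Bnip3, a mitophagy receptor, from 132, 131 and 132 to 205, 204 and 204 CPM (0.63 ± 0.05). All of these had no overlap between groups. Glycolysis genes rose in 16 of 21 and fell in 2 (median 0.19). The glucose transporter Slc2a1 had 774, 739 and 764 against 1024, 995 and 1038 CPM (0.42 ± 0.04, edgeR adjusted p = 3.2e-10). Pfkfb3, which makes an activator of phosphofructokinase, rose by 0.61 ± 0.06, the enolase Eno2 by 0.71 ± 0.06 and the lactate exporter Slc16a3 by 0.36 ± 0.05. In contrast, 16 of 22 nuclear genes of oxidative phosphorylation fell and 0 rose (median -0.19), and 9 fell without GM-CSF replicate 3. Mitochondrially encoded genes fell in 8 of 13. Of these mt-Cytb, a subunit of complex III, had 2758, 2621 and 2889.7 against 2180.0, 1996 and 1929 CPM (-0.44 ± 0.09). The share of counts in mitochondrial protein genes was 1.47% to 1.57% with GM-CSF and 1.22% to 1.37% with IL-6.

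The deepest falls were in a kallikrein cluster on chromosome 7. Klk1b9 had 38.8, 40.7 and 39.0 CPM with GM-CSF and 6.32, 7.15 and 7.96 CPM with IL-6 (-2.47 ± 0.08, edgeR adjusted p = 3.9e-26, chr7:43976061-43980376), the largest fall among genes with at least 5 CPM and no predicted-gene name. Klk1b11 was the most abundant of the family and went from 547, 553 and 588 to 155, 148 and 149 CPM (-1.90 ± 0.07). Klk1b1 fell by 1.83 ± 0.08 and Klk1b27 fell by 2.30 ± 0.13 on the same scale. These genes encode glandular kallikreins, serine proteases first known from salivary gland. Of 14 listed family members 7 had enough counts to be tested, and 6 fell (median -1.90). Of the 7 tested, 3 had mean levels under 1 CPM in both groups. The members are close copies, so how reads were shared among them is uncertain, and the fall of the family as a group is firmer than that of any member.

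The last 60 bases before the start of 4 of the kallikrein genes are printed to show how alike the copies are. All are RefSeq's on GRCm38.p6, plus strand, at chr7:43976001-43976060 for Klk1b9, chr7:43966691-43966750 for Klk1b1, chr7:43995817-43995876 for Klk1b11 and chr7:44052230-44052289 for Klk1b27. Capitals mark TTTAAA, a variant TATA-type run that each of them holds.
Klk1b9: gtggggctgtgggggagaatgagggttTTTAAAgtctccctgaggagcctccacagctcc
Klk1b1: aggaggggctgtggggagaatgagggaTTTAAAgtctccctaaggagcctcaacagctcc
Klk1b11: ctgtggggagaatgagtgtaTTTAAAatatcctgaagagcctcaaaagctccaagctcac
Klk1b27: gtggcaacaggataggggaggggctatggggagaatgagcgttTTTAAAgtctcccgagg
TTTAAA, which reads the same on both strands, occurs in 2.79% of all such 60-base stretches. The 250-base windows were aligned locally to that of Klk1b9, leaving out gaps and unaligned ends. Of the aligned bases, 83.5% were identical for Klk1b1 (203 of 243), 84.2% for Klk1b11 (203 of 241) and 84.9% for Klk1b27 (197 of 232).

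Granulocyte genes fell as well. Genes of secondary and tertiary granules fell in 11 of 18 members and rose in 2 (median -0.68). Without GM-CSF replicate 1 or IL-6 replicate 3 only 1 rose. Ltf (lactoferrin) had 545, 573 and 584 against 171, 174 and 179 CPM (-1.70 ± 0.05, edgeR adjusted p = 3.3e-27, chr9:111019271-111042767). Camp, the precursor of the antimicrobial peptide cathelicidin, went from 37.1, 38.5 and 39.5 to 9.09, 8.56 and 9.63 CPM (-2.07 ± 0.08), and Ngp, neutrophilic granule protein, from 796, 808 and 811 to 268, 261 and 266 CPM (-1.60 ± 0.05). Every IL-6 library was under 40% of each GM-CSF library for these 3 genes. The exception among the leading members was Mmp8, described above, which rose. Cybb, the catalytic subunit of the phagocyte NADPH oxidase, fell by 0.80 ± 0.05. Over the oxidase subunits 3 of 7 fell and 1 rose (median -0.12), the rise being Ncf4 at 0.27 ± 0.05 against -0.36 for Ncf1 and -0.31 for Rac2.

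Genes of mature neutrophils fell in 13 of 22 and rose in 5 (median -0.32). Ly6g, the marker of mouse neutrophils, went from 66.4, 70.1 and 67.8 to 22.3, 24.0 and 22.7 CPM (-1.57 ± 0.06, edgeR adjusted p = 2.2e-25). Cd177, a surface protein of a neutrophil subset, and Retnlg, a secreted neutrophil product, fell, at -1.29 ± 0.05 and -2.01 ± 0.09. The alarmins S100a8 and S100a9 had mean levels of 1079.6 and 2063 CPM with GM-CSF and of 532 and 1017 CPM with IL-6 (-1.02 and -1.02). Receptors moved the other way: Csf3r, the receptor of the neutrophil growth factor G-CSF, rose from 185, 189 and 175 to 282, 256 and 268 CPM (0.55 ± 0.06), and the chemokine receptor Cxcr1 rose by 0.67 ± 0.12. Of the primary granule genes, made at an earlier stage, 5 of 10 fell and 1 rose (median -0.19), and 0 rose with DESeq2 or when any library other than GM-CSF replicate 3 was left out. The elastase Elane fell from 44.6, 46.0 and 46.7 to 27.2, 28.4 and 27.5 CPM (-0.72 ± 0.06) and the peroxidase Mpo by -0.38 ± 0.05. Lyz2, the lysozyme of macrophages and neutrophils, lost the most in level after Chil3, from 2960.3, 2865 and 3119 to 1615, 1672 and 1696 CPM (-0.84 ± 0.05). The summed level of 9 neutrophil markers was 4907 to 5186 CPM with GM-CSF and 2367 to 2427 CPM with IL-6, with none of them at 0.

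Eosinophil genes fell in 7 of 11 and rose in 0 (median -0.71). Rnase2a and Ear2, eosinophil-associated ribonucleases, went from 539.9, 511 and 548 to 129, 121 and 129.6 CPM (-2.08 ± 0.07) and from 17.2, 17.2 and 17.5 to 3.69, 3.16 and 3.78 CPM (-2.28 ± 0.12). They belong to a family of near-identical copies, and their separate counts are uncertain. Prg2, the granule major basic protein, fell by 0.71 ± 0.06 and the peroxidase Epx fell by 0.49 ± 0.06 (edgeR adjusted p = 7.7e-12 and 7.3e-08). Of 5 defining eosinophil markers 2 fell and 0 rose. They summed to 158.4 to 178.2 CPM with GM-CSF and 112.9 to 120.4 CPM with IL-6. Mast cell and basophil genes rose instead, in 7 of 13 members, with 0 falls (median 0.35), and 4 rose with DESeq2. Kit, the stem cell factor receptor, went from 15.3, 14.6 and 12.9 to 26.1, 27.8 and 25.6 CPM (0.88 ± 0.08) and Hdc, which makes histamine, from 26.5, 27.5 and 25.2 to 41.6, 40.4 and 40.6 CPM (0.63 ± 0.06). The protease genes Cpa3 and Mcpt8 rose by 0.47 ± 0.07 and 0.40 ± 0.09. Summed levels of 5 markers of mast cells and basophils were 81.3 to 92.0 CPM with GM-CSF and 101.5 to 108.7 CPM with IL-6.

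Monocyte genes fell in 8 of 17 and rose in 2 (median -0.17). Ccr2, the receptor of Ccl2 and Ccl7, fell from 264, 261 and 267 to 126, 126 and 123 CPM (-1.08 ± 0.05, edgeR adjusted p = 5.8e-21) while these ligands rose. Ly6c2, which marks inflammatory monocytes, went from 13.3, 13.3 and 14.2 to 5.86, 5.30 and 5.98 CPM (-1.24 ± 0.11), and the integrin chain Itgal fell by 0.78 ± 0.05. The members that rose were F13a1, a coagulation factor chain, by 0.82 ± 0.06 and Vcan, the proteoglycan versican, from 122, 119.7 and 116 to 263, 239 and 234 CPM (1.04 ± 0.06). Fn1 (fibronectin) was among the largest losses in level, from 5842, 5319 and 5154 to 4434, 4072 and 4157 CPM (-0.37 ± 0.11, adjusted p = 0.013). This call was lost without GM-CSF replicate 1 (-0.31), IL-6 replicate 2 (-0.34) or IL-6 replicate 3 (-0.35), with DESeq2 and when only genes of at least 5 CPM were scaled and tested (-0.32).

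Antigen presentation by MHC class II fell nearly throughout. In that list 10 of 12 genes fell and 1 rose (median -0.56). H2-Aa had 688, 687 and 721 against 397, 403 and 405 CPM (-0.80 ± 0.05, edgeR adjusted p = 1.8e-16), H2-Ab1 fell by 0.70 ± 0.05 and H2-Eb1 fell by 0.74 ± 0.05. H2-DMb2, part of the peptide loader, fell by 0.74 ± 0.05, and the invariant chain Cd74 fell from 3815, 3879 and 3872 to 2659, 2651 and 2698 CPM (-0.53 ± 0.04). No library of one group reached the range of the other in these 5 genes. Among MHC class I genes 2 of 13 rose and 1 fell (median 0.01), with the peptide transporter Tap1 at 0.18 ± 0.05, and 5 rose when only the groups compared were fitted. Psmb8, an immunoproteasome subunit, fell by 0.19 ± 0.05 (adjusted p = 0.0085) and lost its call without GM-CSF replicate 3 (-0.15).

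Dendritic cell genes fell in 12 of 21 and rose in 2 (median -0.33). With library size alone or when only the groups compared were fitted, 4 rose. Of 6 defining dendritic cell markers 2 fell and 1 rose, the growth factor receptor Flt3 at 0.47. Their summed level was 55.4 to 61.2 CPM with GM-CSF and 38.0 to 39.7 CPM with IL-6. Cd209a, a lectin of monocyte-derived dendritic cells, went from 13.4, 15.9 and 14.5 to 3.18, 2.72 and 3.52 CPM (-2.21 ± 0.11), Ccr7, the receptor for homing to lymph nodes, from 155, 151 and 158 to 115, 109.8 and 113 CPM (-0.46 ± 0.05), and Irf4, a factor of type 2 dendritic cells, fell by 0.44 ± 0.05. Lectins of the CD209 and galactose-binding families fell in 8 of 11 (median -1.53), the lowest median of the lists after the kallikreins. Asgr2, a chain of the asialoglycoprotein receptor, had 385, 399 and 415 against 121, 119 and 120.2 CPM (-1.74 ± 0.06, edgeR adjusted p = 3.1e-26). Clec4f, a lectin known from Kupffer cells, fell by 1.53 ± 0.09, and Mgl2, a galactose lectin, from 3050.4, 3018 and 3113 to 2209.9, 2148 and 2157 CPM (-0.49 ± 0.07). The chemokines Ccl17 and Ccl22, made by dendritic cells and by macrophages under IL-4, fell, at -1.59 ± 0.06 and -1.09 ± 0.05. Ccl17 had 137, 138 and 146 against 45.7, 46.1 and 48.2 CPM and Ccl22 455, 459.6 and 459 against 217, 213 and 217 CPM.

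Genes of alternative macrophage activation fell in 9 of 14 and rose in 3 (median -0.42). Chil3, a chitinase-like lectin and one of the most abundant transcripts, had the largest loss in level, from 7319.5, 7182 and 7365 to 4727, 4761 and 4737 CPM (-0.62 ± 0.07, edgeR adjusted p = 8.1e-09). Retnla, a secreted product induced by IL-4, fell by 0.58 ± 0.06. Mrc1 and Arg1, both named above, belong to this list and rose.

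Mediators through which myeloid cells suppress T cells rose in 12 of 21 and fell in 3 (median 0.24). Nos2, the inducible nitric oxide synthase, went from 125, 124 and 119 to 271, 258 and 262 CPM (1.10 ± 0.06, edgeR adjusted p = 9.3e-20). Slc7a2, which carries arginine into the cell, had 1018, 997 and 997 against 1648, 1579 and 1607 CPM (0.68 ± 0.06). Havcr2, the checkpoint receptor TIM-3, rose from 18.3, 19.0 and 19.3 to 37.9, 37.5 and 38.3 CPM (1.01 ± 0.07) and Cd274, the ligand PD-L1, from 305, 301 and 291 to 397, 383 and 398 CPM (0.39 ± 0.05). Hmox1, the haem oxygenase, rose by 0.39 ± 0.04. The falls include S100a8 and S100a9, which the list shares with the neutrophil genes.

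The leukotriene pathway was examined because of the genotype. Of 20 genes 8 rose and 3 fell (median 0.08), 3 and 2 of 11 in synthesis and 5 and 1 of 9 among receptors. Alox5 had 391, 387 and 391.8 CPM with GM-CSF and 390.5, 371 and 367 with IL-6, groups that overlap (-0.05 ± 0.05, adjusted p = 0.62). Mgst2, a glutathione transferase able to form leukotriene C4, fell from 71.0, 75.5 and 76.1 to 53.9, 55.0 and 55.7 CPM (-0.43 ± 0.05). Among receptors related to those for nucleotides, P2ry13 rose by 0.78 ± 0.08, P2ry14 by 0.37 ± 0.05, and P2ry6 fell by 0.38 ± 0.05 (edgeR adjusted p = 8.7e-11, 1.7e-07 and 5.6e-07). Prostanoid genes were split, 4 of 18 higher and 3 lower (median -0.10), and 2 were higher without GM-CSF replicate 3. Ptgs2, the inducible cyclooxygenase, rose by 0.71 ± 0.12 at 2.66, 3.66 and 3.78 against 5.77, 5.69 and 4.97 CPM, while Ptgs1, the constitutive one, fell by 0.26 ± 0.04. Ptger4, a prostaglandin E2 receptor, fell by 0.82 ± 0.08.

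Growth factor signalling showed small shifts. The GM-CSF receptor chains Csf2rb and Csf2ra differed in sign, at 0.17 ± 0.05 (from 3438, 3308 and 3317 to 3897, 3694 and 3712 CPM) and -0.18 ± 0.05 (from 456, 445 and 451 to 406, 390.1 and 401 CPM), with edgeR adjusted p = 0.014 and 0.007. The first lost its call without GM-CSF replicate 2 (0.16), GM-CSF replicate 3 (0.16) or IL-6 replicate 1 (0.14), and with DESeq2 or its size factors (0.13 in both), and the second without GM-CSF replicate 1 (-0.17) or IL-6 replicate 2 (-0.16). Targets of GM-CSF and STAT5 rose in 5 of 12 and fell in 6. Csf1, the macrophage growth factor, rose from 435, 426 and 418 to 867, 835 and 833 CPM (0.99 ± 0.05), whereas Cd83, a maturation marker, fell by 0.51 ± 0.06. Receptors for colony-stimulating factors and related growth factors rose in 4 of 7 (median 0.47), among them Csf3r, Kit and Flt3, the last at 0.47 ± 0.11. Among myeloid transcription factors 4 of 22 rose and 8 fell (median -0.12). Maf, a macrophage factor, went from 17.6, 17.1 and 14.9 to 36.1, 34.9 and 38.2 CPM (1.13 ± 0.07), and Cebpe, needed for secondary granules, from 63.4, 61.2 and 63.0 to 43.2, 42.1 and 40.0 CPM (-0.58 ± 0.06).

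Genes of proliferation fell together. Mitosis genes fell in 23 of 25 (median -0.52) and DNA replication genes in 19 of 25 (median -0.35), and none rose in either list. Mki67, the proliferation marker Ki-67, had 141, 139.7 and 142 against 103, 92.6 and 90.1 CPM (-0.56 ± 0.06, edgeR adjusted p = 3.3e-10). Bub1b, a spindle checkpoint kinase, fell by 0.61 ± 0.06, the mitotic kinase Cdk1 fell by 0.58 ± 0.07, and Mcm6, a subunit of the replicative helicase, fell by 0.53 ± 0.06. MYC and ribosome biogenesis genes fell in 16 of 20 (median -0.35), with Myc itself going from 222, 217 and 215 to 166, 153 and 163 CPM (-0.44 ± 0.05) and Dkc1, a nucleolar enzyme for RNA modification, falling by -0.53 ± 0.06. Cell cycle inhibitors were split, 3 of 16 higher and 3 lower, with 1 lower without IL-6 replicate 3 and 5 higher when only the groups compared were fitted. Cdkn2b, an inhibitor of CDK4 and CDK6, fell by 0.43 ± 0.06 and Rb1, the retinoblastoma protein, rose by 0.30 ± 0.05.

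Biosynthetic genes fell too. Serine and one-carbon enzymes fell in 10 of 12 (median -0.36), led by Shmt2, the mitochondrial serine hydroxymethyltransferase, from 146, 147 and 151 to 101, 103 and 103 CPM (-0.53 ± 0.05). Aminoacyl-tRNA synthetases fell in 12 of 20 (median -0.19), for example Gars, which charges glycine tRNA, by -0.29 ± 0.04. Cholesterol synthesis fell in 7 of 9 genes of the mevalonate arm and 9 of 12 of the sterol arm (medians -0.35 and -0.36). Cyp51, the sterol demethylase, had 42.6, 42.4 and 44.4 against 25.6, 22.5 and 24.7 CPM (-0.83 ± 0.06, edgeR adjusted p = 1.1e-14). Fatty acid synthesis genes fell in 8 of 13 (median -0.25), and Fasn, the fatty acid synthase, went from 149.8, 146 and 148 to 109, 97.2 and 97.8 CPM (-0.55 ± 0.07). Genes of sterol sensing and transport were mixed, with 6 of 17 higher and 4 lower (median 0.03), and the efflux pumps Abca1 and Abcg1 were among those that rose, by 0.80 ± 0.07 and 0.49 ± 0.05. Antioxidant targets of NRF2 fell in 9 of 14 (median -0.24), as in the peroxiredoxin Prdx1 at -0.53 ± 0.05, and Hmox1 was the only one to rise. Heat shock chaperones fell in 9 of 13 (median -0.23). Hspa1b had 26.0, 27.9 and 25.3 against 15.8, 16.6 and 15.7 CPM (-0.72 ± 0.07), though its reads cannot be parted safely from its near-copy Hspa1a at -0.80.

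Markers of other cells that marrow can hold were checked as well. Progenitor markers rose in 8 of 12 and fell in 1 (median 0.35), and 5 rose without GM-CSF replicate 3 or IL-6 replicate 3. None fell when any of the 6 libraries was left out. Summed levels below are over smaller sets of defining markers. The sum of 4 progenitor markers was 143.0 to 146.0 against 144.4 to 147.5 CPM. Endothelial markers rose in 4 of 9 (median 0.50), and the sum of 4 of them was 194.3 to 199.3 against 351.4 to 362.9 CPM. The sum rests on Pecam1, which leukocytes share (150.4, 155 and 157 to 281, 272 and 274 CPM, 0.84 ± 0.05), and on Kdr, the VEGF receptor (42.3, 40.1 and 40.0 to 79.8, 80.1 and 75.1 CPM, 0.94 ± 0.06). Vwf, also known from platelets and endothelium, rose by 0.65 ± 0.06, and the platelet integrin chains Itga2b and Itgb3 rose by 0.55 ± 0.05 and 0.86 ± 0.06. Erythroid and megakaryocyte genes rose in 5 of 13 and fell in 1 (median 0.35), and 5 erythroid markers summed to 2.84 to 3.53 against 3.52 to 5.40 CPM. B cell markers fell in 3 of 12, with sums over 6 of 93.7 to 95.3 against 76.5 to 85.9 CPM. T and NK cell markers fell in 4 of 14, with sums over 5 of 7.73 to 8.23 against 6.90 to 7.38 CPM. Among genes with at least 5 CPM, 20.9% fell. Of these lists, 2 of the 12 and 5 of the 14 members had means under 1 CPM in both groups. The one T cell list member that rose was Il7r, the IL-7 receptor chain, from 109.8, 102 and 107 to 249.8, 245 and 230.0 CPM (1.19 ± 0.05). Sums of 7 stromal markers were 80.8 to 84.5 against 92.7 to 99.5 CPM. None of the tested markers summed here was at 0 in either group, and their part in the other changes was not tested.

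**Figure D3:**
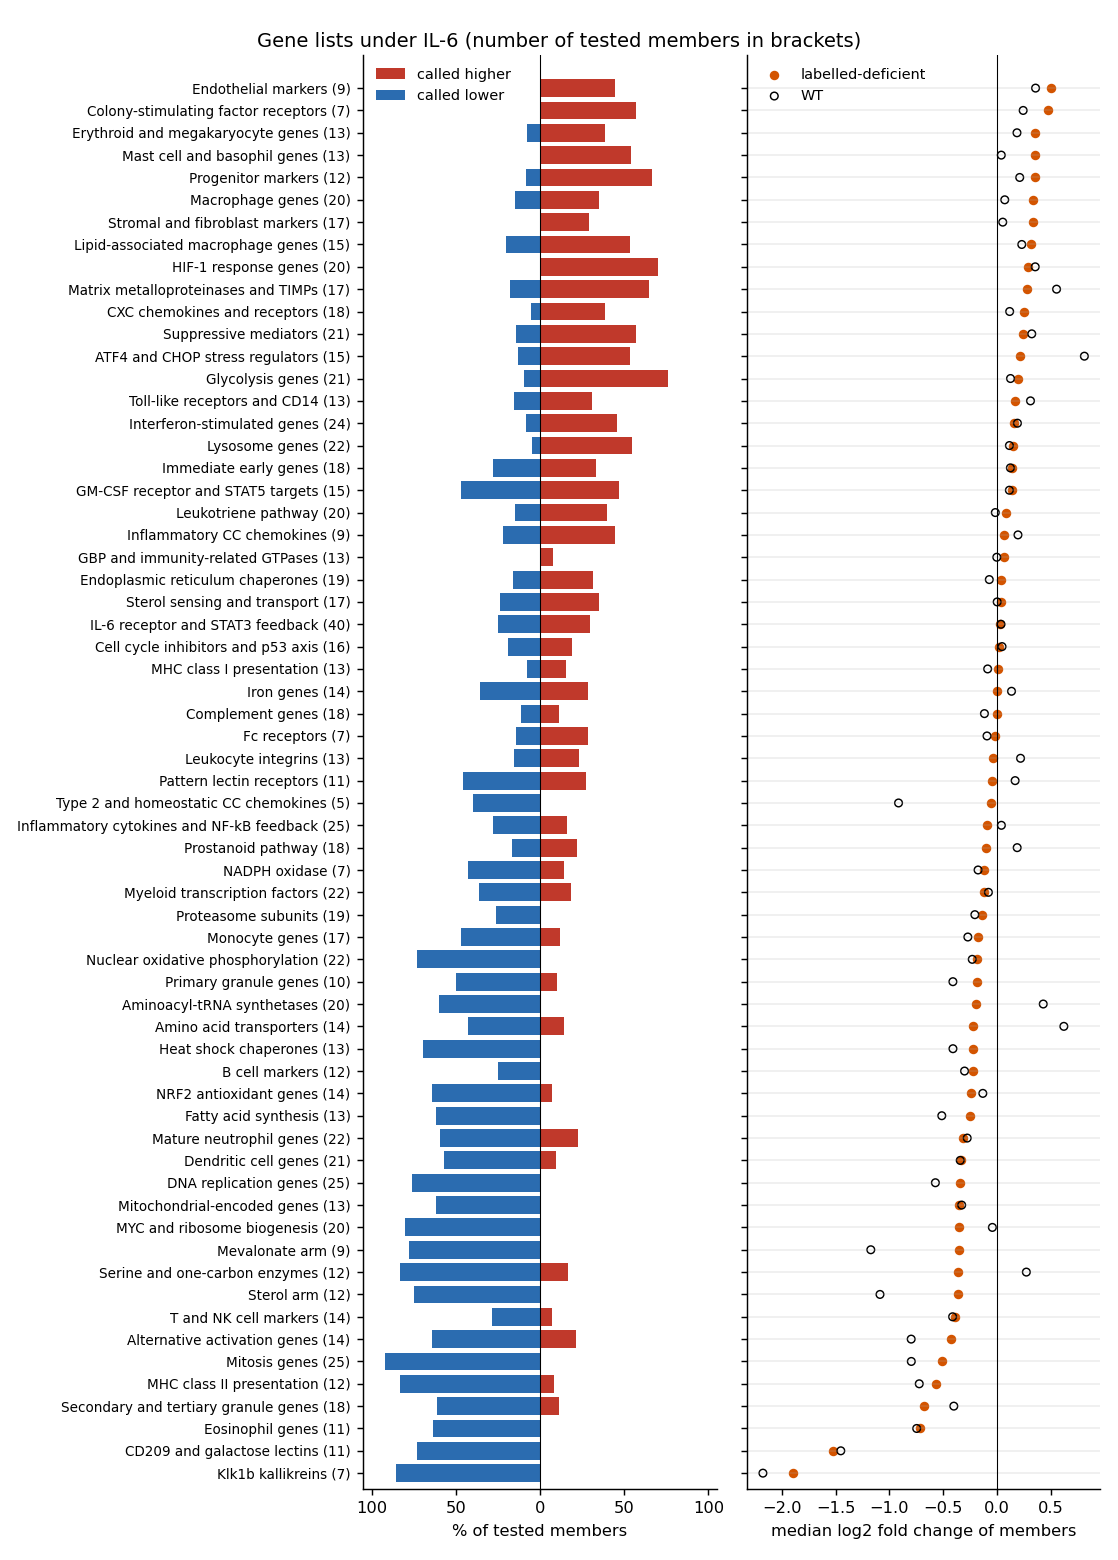
Left, the percent of tested members of each gene list that rose or fell with IL-6 in labelled-deficient marrow (x axis). Right, the median log2 fold change of the same members in labelled-deficient (filled) and WT marrow (open). The kallikreins have the lowest median, -1.90 in labelled-deficient marrow, and for amino acid transporters, tRNA synthetases and serine enzymes the filled and open symbols lie on opposite sides of 0.

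The same IL-6 comparison in WT marrow shares no library with this one. It called 6135 genes (21.7%), 2940 higher (10.4%) and 3195 lower (11.3%), of which 249 (0.879%) and 325 (1.15%) changed at least 2-fold. Among the 11103 genes with at least 5 CPM in one of the labelled-deficient groups, 2625 rose and 2685 fell in WT. WT counts of list members below are to be read against these. Of the genes that rose in labelled-deficient marrow, 1005 also rose in WT, which is 64.0% of the former list and 34.2% of the latter. Of those that fell, 1484 fell in WT as well, 59.7% and 46.4% of the lists. Only 30 genes rose in labelled-deficient marrow and fell in WT, and 140 fell and rose. Among the 207 rises of at least 2-fold 102 were called rises in WT, and among the 125 falls 93 were called falls. Across the 11103 well-expressed genes the 2 responses correlated at Pearson r 0.69 and Spearman rho 0.60. This describes genes, which are not independent replicates. Mmp13 rose alike in both, by 2.61 here and 2.58 in WT, and Spp1, Gpnmb, Ctsl, Csf1, Havcr2, Lpl, Axl, Klk1b9 and Rnase2a had no called difference of response.

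The difference between the responses was tested as an interaction, labelled-deficient minus WT. A total of 2091 genes were called (7.38%), 828 with a higher response in labelled-deficient marrow (2.92%) and 1263 with a lower one (4.46%). At least 2-fold differences numbered 120 (0.424%) and 65 (0.229%). Higher differences were 39.6% of these calls, 24.7% with DESeq2 size factors, 21.1% with DESeq2 and 47.6% with library size alone. Genes of at least 5 CPM scaled on their own gave 53.4%. In the main fit, the 11103 genes with at least 5 CPM in one of the labelled-deficient groups held 689 higher and 1234 lower differences. Of these calls 35.8% were higher. Differences counted among list members below are to be read against these numbers.

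**Figure D4:**
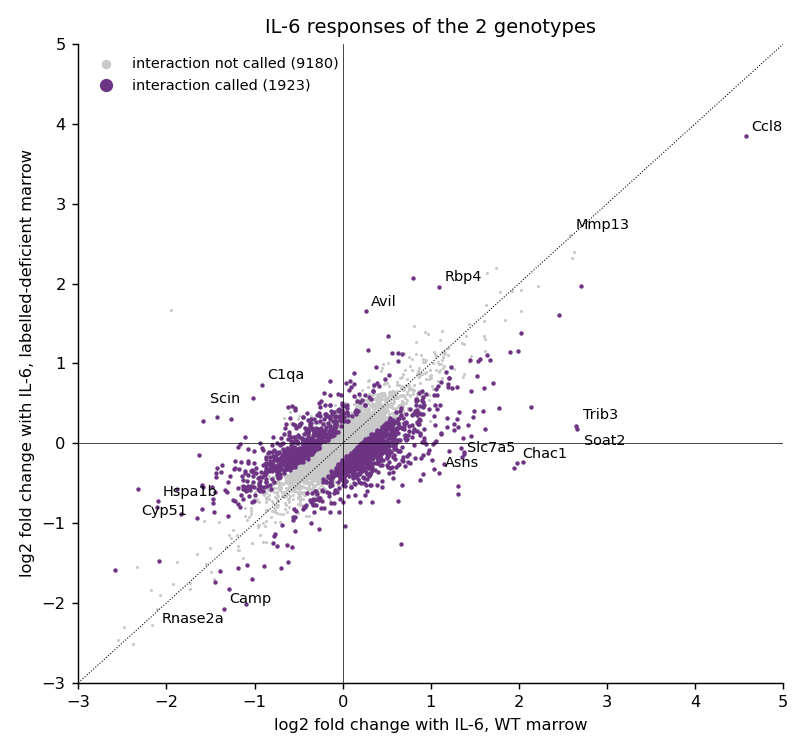
Log2 fold change with IL-6 in labelled-deficient marrow (y axis) against that in WT marrow (x axis) for 11103 genes with at least 5 CPM in one of the labelled-deficient groups. Purple points are the 1923 genes whose responses differ at an adjusted p under 0.05 (edgeR interaction), grey points the other genes, and the dotted line marks equal responses.

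Many of the widest differences were in genes of the amino acid response, which ATF4 drives when amino acids run short or proteins misfold. Trib3, a pseudokinase induced by ATF4 and CHOP, went from 247, 250.01 and 253 to 289, 291 and 288 CPM with IL-6 in labelled-deficient marrow (0.21 ± 0.05). In WT it went from 32.5, 35.3 and 33.9 to 205, 221 and 211 CPM (2.65 ± 0.06), so the difference of responses was -2.44 ± 0.08 (edgeR adjusted p = 5.1e-27). The levels with IL-6 lay within 1.5-fold of each other, and the GM-CSF levels were 250.1 and 33.9 CPM on average. Chac1, which degrades glutathione, showed the like at 47.9, 44.2 and 47.4 to 41.0, 38.5 and 37.3 CPM here (-0.25 ± 0.07) and 7.73, 10.1 and 7.74 to 32.8, 33.3 and 32.6 CPM in WT (1.97 ± 0.09). Its call here was lost without GM-CSF replicate 1 (-0.23) or 3 (-0.24) or IL-6 replicate 2 (-0.24) or 3 (-0.22). Amino acid transporters fell in 6 of 14 and rose in 2 here (median -0.22), against 12 higher and 1 lower in WT (median 0.62), and 13 of 14 had a lower response. Slc7a5, the large neutral amino acid transporter, had 616, 601 and 598 against 555, 522 and 530.1 CPM here (adjusted p = 0.073) and 203, 215 and 186 against 510.3, 529 and 502 CPM in WT (1.35 ± 0.07). The glycine transporter Slc6a9 and the serine and alanine transporter Slc1a4 differed in response by -2.27 ± 0.19 and -2.26 ± 0.12.

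ATF4 and CHOP regulators rose in 8 of 15 here and 13 in WT, with a lower response here in 10. The tRNA synthetases, 12 of which fell here, rose in 15 of 20 in WT (median 0.43), and 16 had a lower response. Serine and one-carbon enzymes rose in 8 of 12 in WT, and 7 had a lower response here. Asns, the asparagine synthetase, was chosen from that list after its values were seen. It went from 177, 169 and 175 to 139, 133 and 131 CPM here (-0.37 ± 0.05) and from 56.6, 53.5 and 56.2 to 117, 122 and 117 CPM in WT (1.10 ± 0.06).

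The starts of Asns and Chac1 are shown because each has TGATGNAA, the letters of the element that ATF4 binds, within 250 bases before the start. Both are RefSeq's on GRCm38.p6, Asns from chr6:7693210-7693277 on the minus strand (element 23 to 16 bases before the start) and Chac1 from chr2:119351004-119351101 on the plus strand (193 to 186 bases before, read on the other strand). Capitals mark the element.
Asns: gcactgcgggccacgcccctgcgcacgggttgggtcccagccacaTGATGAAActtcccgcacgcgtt
Chac1: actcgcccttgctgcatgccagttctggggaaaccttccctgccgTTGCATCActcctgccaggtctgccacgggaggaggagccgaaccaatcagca
Searched on either strand, the element was in 3.45% of all 250-base windows, in 2.45% of those of tested genes and in 2.89% of those of genes that fell here. Nothing about the factor follows from these letters.

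Sterol genes differed in the opposite sense, falling less here than in WT. All 12 tested genes of the sterol arm and 8 of 9 of the mevalonate arm had a called difference (medians of the difference 0.69 and 0.85). Hmgcs1, which makes HMG-CoA, had 58.6, 58.6 and 57.1 against 47.4, 48.5 and 48.2 CPM here (-0.28 ± 0.05) and 171, 180.4 and 179.9 against 68.0, 70.5 and 67.3 CPM in WT (-1.37 ± 0.05). Its lowest WT library with GM-CSF lay above every labelled-deficient library. Fads2, a fatty acid desaturase, had -0.14 ± 0.08 here (adjusted p = 0.27) and fell in WT by -1.63 ± 0.06, a difference of 1.48 ± 0.10. Proliferation genes also fell less, with 13 of 25 mitosis genes and 12 of 25 replication genes having a higher response here. With genes of at least 5 CPM scaled on their own, 20 of the mitosis genes did.

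**Figure D5:**
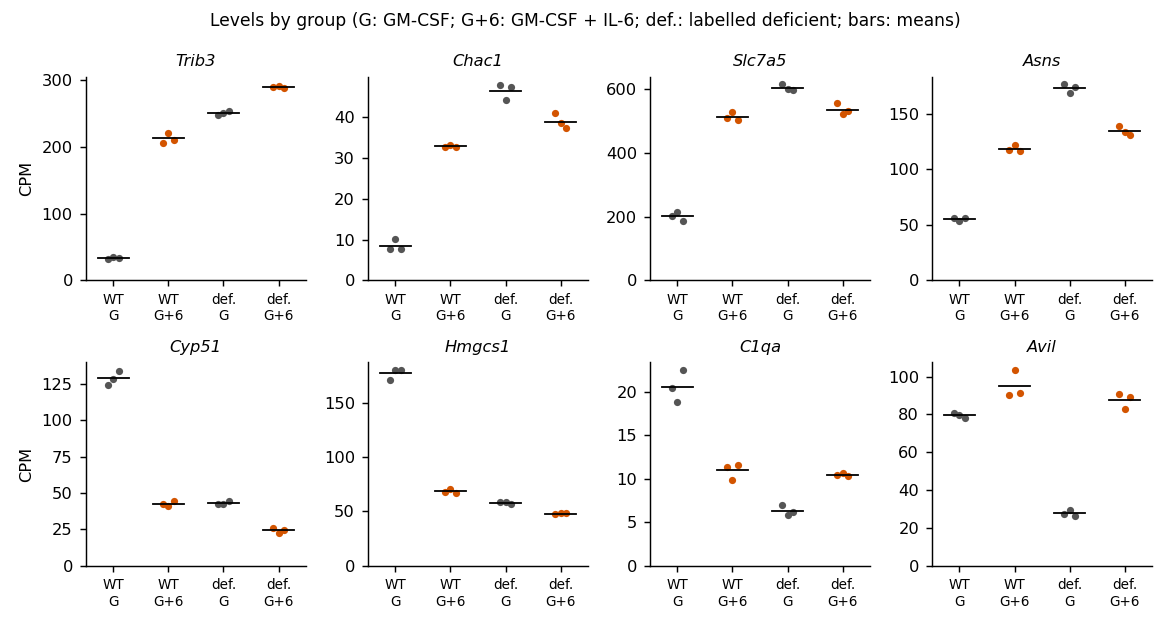
CPM of each library (y axis, separate scale per gene) for Trib3, Chac1, Slc7a5, Asns, Cyp51, Hmgcs1, C1qa and Avil in 4 groups: WT and labelled-deficient marrow with GM-CSF or with GM-CSF and IL-6, 3 libraries each. Trib3 averages 33.9 CPM in WT with GM-CSF and 212, 250.1 and 289.6 CPM in WT with IL-6, labelled-deficient with GM-CSF and labelled-deficient with IL-6.

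The chains of C1q differed in response between the genotypes. Of 18 complement genes 4 had a higher response here and 1 a lower one. C1qa, a chain of the complement starter C1q, rose here from 7.00, 5.77 and 6.13 to 10.5, 10.6 and 10.3 CPM (0.73 ± 0.12, edgeR adjusted p = 6.2e-06) and fell in WT from 20.4, 18.8 and 22.5 to 11.4, 9.86 and 11.6 CPM (-0.91 ± 0.10), a difference of 1.64 ± 0.15. C1qb and C1qc had differences of 1.75 ± 0.16 and 1.57 ± 0.16, with adjusted p = 0.082 and 0.082 for the response here. C1qc was called here without GM-CSF replicate 3 (0.40), and both were called without the EMT6 medium libraries (0.34 and 0.32). The actin-severing genes Avil and Scin rose here, Avil from 27.4, 29.6 and 26.4 to 90.6, 83.0 and 89.4 CPM (1.65 ± 0.06) and Scin by 0.57 ± 0.07. In WT Avil rose by 0.26 ± 0.06 and Scin fell by 1.02 ± 0.07. Mast cell and basophil genes rose in 1 and fell in 3 of 13 in WT, and 7 had a higher response here. Secondary and tertiary granule genes had a lower response here in 10 of 18 and a higher one in 1. Primary granule genes had a higher one in 4 of 10 and a lower one in 1. Ltf fell by 1.03 ± 0.05 in WT, a difference of -0.67 ± 0.07, and Ccr2 fell by 0.27 ± 0.05, a difference of -0.80 ± 0.07. Suppressive mediators had a lower response here in 7 of 21. The IL-6 feedback gene Socs3 rose by 0.91 ± 0.05 in WT, from 363, 349 and 336 to 652, 671 and 643 CPM, and the difference of -0.39 ± 0.06 was called (edgeR adjusted p = 2.4e-05).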

How the data were processed

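The values used are raw counts per gene, deposited by the authors for each of 18 libraries. Per the submitters' processing notes the tools were HISAT2 2.1.0, HTSeq 0.13.5 and DESeq2 1.34.0, with mm10 as the genome. The annotation and strand setting are not given in the sources used here, so overlapping and antisense genes, and near-identical copies, are uncertain. All 55536 gene IDs occur in GENCODE M21, which gave symbols and mm10 coordinates. HTSeq summary lines, spike-in entries and numbered entries with no gene ID were left out of library sizes and tests, and the last took at most 0.446% of feature counts in a library.

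edgeR 4.0.16 (R 4.3.3) was fitted to all 18 libraries with 1 mean per group (TMM scaling, filterByExpr, quasi-likelihood F test, 12 residual degrees of freedom). Benjamini-Hochberg adjustment ran over all 28334 tested genes in each of 3 comparisons: IL-6 in labelled-deficient marrow, IL-6 in WT marrow, and their difference. Log2 fold changes carry standard errors, and CPM are TMM-scaled. The common biological coefficient of variation was 0.048. On simulated counts for the labelled-deficient comparison (24911 genes tested), 9, 20, 33 and 40 of 50 genes were recovered at 1.2, 1.5, 2 and 4-fold. There were 6 false calls. Changed genes were drawn at random from all tested genes, low-count ones included, and those that failed the filter counted as missed. Far fewer genes were changed than were called in the data.

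The comparison, the 63 gene lists (930 genes) and the rule for named genes were chosen with earlier results of these data known, so no list is independent support. List members count as risen or fallen by the adjusted p over all tested genes. Names in the text are drawn from the 12 largest rises and falls with at least 5 CPM, an adjusted p under 0.05, no predicted-gene name and no overlap of replicates, the 8 largest gains and losses in CPM, the 10 largest interactions each way, the 4 smallest p-values of each list, and 14 genes fixed by name. Of these, 4 genes are not reported here. Other settings tried were a DESeq2 1.42.0 fit, DESeq2 size factors within edgeR, library size alone, no low-count filter, at least 5 CPM, only the groups compared, no EMT6 medium libraries, a replicate block, and each library left out. Sequences are RefSeq's on GRCm38.p6.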

Additional observations from a re-analysis of the deposited data

Results flagged for a closer look

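For 41 genes named by size of change or of interaction, or fixed by name, the IL-6 response differed between labelled-deficient and WT marrow. The test was edgeR's interaction test (adjusted p under 0.05 over 28334 genes). Genes named for a large interaction were chosen on that result, so 41 does not measure how often responses differ. Of all tested genes, 7.38% had a called difference. Values are log2 differences, labelled-deficient minus WT. The responses were lower here for Soat2 at -2.47 and for genes of amino acid supply and stress: Trib3 -2.44, Slc6a9 -2.27, Slc1a4 -2.26, Chac1 -2.23, Cth -1.95 and Slc7a5 -1.53. Soat2, which esterifies cholesterol, had 38.3, 39.5 and 38.5 CPM with GM-CSF and 43.4, 42.7 and 46.0 CPM with IL-6 here, against 7.34, 6.49 and 6.98 and 47.0, 41.1 and 43.3 CPM in WT. Cth, which makes cysteine, fell here by -0.64 ± 0.11 and rose in WT by 1.31 ± 0.13. Dner at -1.85, Rin1 at -1.69 and Extl1 at -1.52 belong to the same end of the ranking.

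Genes with a higher response here were Dynlt1c 1.81, C1qb 1.75, C1qa 1.64, Scin 1.59, C1qc 1.57, Fads2 1.48, Fxyd4 1.43, Avil 1.39 and Hspa1b 1.38. The call for Dynlt1c was lost without IL-6 replicate 2 of the labelled-deficient cultures (1.44), without WT GM-CSF replicate 3 (1.05) and with DESeq2.

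Among the largest changes with IL-6, the responses of Camp (-0.72), Ccl8 (-0.73), Retnlg (-0.91), Saa3 (-0.74) and Sectm1a (-0.54) were lower here, and those of Rbp4 (0.87) and Tmem26 (1.26) higher. The last of the lower ones lost its call in 8 of the 12 fits that left out a library (-0.54 to -0.44). Of the largest gains and losses in level, Fn1 (-0.76), Mmp12 (-0.26) and S100a9 (-0.33) were lower, and Cd74 (0.33), Tmsb4x (0.40) and Vim (0.23) higher. Tmsb4x, which binds actin monomers, fell from 3870.4, 3989 and 4145 to 2722, 2778 and 2761 CPM here. The call for Mmp12 was lost in 11 of the 12 fits (-0.28 to -0.22). That for S100a9 was lost without labelled-deficient GM-CSF replicate 3 (-0.29) or WT GM-CSF replicate 2 (-0.26). That for Vim was lost without WT IL-6 replicate 1 (0.21). Over the 20 alternatives other than a 2-fold requirement, the calls for Mmp12, S100a9 and Vim were lost in 12, 3 and 3.

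Of the genes fixed by name, Arg1 (-0.61), Nos2 (-0.54), Il6st (-0.43), Socs3 (-0.39), Ly6g (-0.38), Il6ra (-0.28), Csf2rb (-0.22) and Cd274 (-0.21) had lower responses and Alox5 (0.22) a higher one. The calls for Alox5, Cd274, Csf2rb and Il6ra were lost in 8 to 10 of the 12 fits. In those, Alox5 stayed at 0.19 to 0.24, Cd274 at -0.22 to -0.18, Csf2rb at -0.22 to -0.17 and Il6ra at -0.28 to -0.22. Over the 20 alternatives other than a 2-fold requirement, these 4 calls were lost in 14, 11, 9 and 8, in the same order.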

How the results depend on the processing

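In labelled-deficient marrow no called gene turned its direction and was called again under any alternative. Requiring at least a 2-fold change left 332 calls (207 higher, 125 lower), against 574 in WT (249 higher, 325 lower) and 185 differences of response (120 higher, 65 lower). Fitting only the groups compared, which tests fewer genes, called 2390 rises here and 1283 higher differences, the latter as without the EMT6 medium libraries. Higher differences numbered 1474 among genes of at least 5 CPM scaled on their own and 510 with DESeq2. Lower ones numbered 1902 with DESeq2, and the cause was not tested. Leaving out 1 library gave 3096 to 3403 calls here (1215 to 1319 higher, 1804 to 2140 lower), 5073 to 6013 in WT (2354 to 2781, 2671 to 3249) and 1489 to 2240 differences (598 to 1003, 872 to 1237). Ccl24, not called at -0.06, ranged from -0.10 to 0.0295 when 1 library was left out. Over the named genes and all alternatives, 3772 values of the response here kept direction and side of the threshold, 261 lost the call, 31 gained one and 1 changed sign. These alternatives include the 2-fold requirement, under which every called gene below 2-fold loses its call by definition. Replicate numbers were not taken to pair the samples. Deviations of same-numbered samples correlated at 0.088, -0.021 and 0.046 here, and at 0.045, 0.048 and 0.20 in WT. Those of differently numbered samples ran from -0.11 to 0.063 here and from -0.23 to 0.18 in WT. With 3 samples per group these values cannot settle whether samples were paired. With a replicate block 3957 genes were called here (3880 of the 4057), 6004 in WT and 2018 for the difference. At this depth 9 of 50 simulated 1.2-fold changes were recovered, so a change of that size can be missed.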

Other observations

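Interferon-stimulated genes rose in 11 of 24 tested members and fell in 2 (median 0.16). The count of rises was 7 without GM-CSF replicate 2 or 3 and 6 without IL-6 replicate 1, and that of falls was 1 without any library but IL-6 replicate 3. Irf7, a master factor of the interferon response, had 39.2, 39.3 and 39.2 CPM with GM-CSF and 58.7, 57.7 and 57.6 CPM with IL-6 (0.56 ± 0.06, edgeR adjusted p = 2.9e-10), and Oas2, an antiviral enzyme, rose by 0.97 ± 0.12. Guanylate-binding proteins and related GTPases rose in 1 of 13 and fell in 0. Of these 0 rose with DESeq2 or without GM-CSF replicate 1 or 2 or IL-6 replicate 1 or 2, and 3 rose when only the groups compared were fitted. Toll-like receptor genes rose in 4 of 13 and fell in 2 (median 0.17), with Tlr6 at 0.40 ± 0.06. Only 2 rose without GM-CSF replicate 2 or IL-6 replicate 1, 1 fell without GM-CSF replicate 1 or 3 or IL-6 replicate 3, and 4 fell with DESeq2. Inflammatory cytokine and NF-kB feedback genes rose in 4 of 25 and fell in 7 (median -0.10). Only 2 rose without GM-CSF replicate 2 or 3 or IL-6 replicate 1 or 2, and with DESeq2 2 rose and 13 fell. Tnf went from 32.2, 30.4 and 35.1 to 21.3, 22.2 and 24.5 CPM (-0.52 ± 0.08), and Il27, whose product is a cytokine subunit, rose by 0.69 ± 0.12. Immediate early genes were split, 6 of 18 higher and 5 lower (median 0.14), with Egr2 at -0.49 ± 0.05 and Atf3 at 0.30 ± 0.05.

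Endoplasmic reticulum chaperones and sensors rose in 6 of 19 and fell in 3 (median 0.04), and 3 rose with DESeq2 size factors. In WT 4 rose and 9 fell, and 10 had a higher response in labelled-deficient marrow. Hspa5, the chaperone BiP, rose by 0.27 ± 0.04 from 1261, 1221 and 1283 to 1505, 1522 and 1519.9 CPM, and Calr (calreticulin) had 0.21 ± 0.04 here and -0.49 ± 0.04 in WT, a difference of 0.71 ± 0.06. Xbp1, a factor of the unfolded protein response, fell by 0.33 ± 0.05. Iron genes were divided, 4 of 14 higher and 5 lower (2 lower without GM-CSF replicate 1), and the transferrin receptor Tfrc fell from 64.9, 64.8 and 66.3 to 42.3, 44.1 and 44.1 CPM (-0.58 ± 0.06) while ferritin Fth1 rose. Proteasome subunits fell in 5 of 19. That count was 2 without GM-CSF replicate 3, 3 without IL-6 replicate 1 or 2, and 14 with DESeq2. Integrin chains rose in 3 of 13 and fell in 2, and pattern-recognition lectins rose in 3 of 11 and fell in 5. Clec12a, an inhibitory lectin, went from 26.6, 28.7 and 27.5 to 11.8, 13.2 and 12.4 CPM (-1.15 ± 0.07), whereas Clec4d, an activating one, rose by 0.58 ± 0.06. Fc receptors rose in 2 of 7 and fell in 1 (median -0.02). Complement genes rose in 2 of 18 and fell in 2 (median -0.001), and 4 rose without the EMT6 medium libraries. Among genes with at least 5 CPM, 11.5% rose and 20.9% fell. The anaphylatoxin receptor C3ar1 rose by 0.59 ± 0.05. Stromal markers rose in 5 of 17 (3 without GM-CSF replicate 2, 2 without IL-6 replicate 1).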
